A study of Mus musculus with 81 samples.

Results

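The genes of blood coagulation and fibrinolysis were followed in the liver of fasted male BXD mice on a high-fat or a chow diet. The 38 genes were listed by symbol for their known part in clot formation, its inhibition and clot breakdown. No measured value entered the rule of the list, but earlier results of these data were known when it was chosen. Of the 21765 genes on the arrays, 37 of the 38 were found under their symbol, each read by the probe set with the highest mean. Klkb1, which encodes plasma prekallikrein, was not found under that symbol. The study asked how diet and genetic background shape liver transcripts, with 40 arrays of mice fed the Harlan 06414 high-fat diet from 8 weeks of age and 41 arrays of mice fed the Harlan 2018 chow. All mice were males of 29 weeks, and for each array RNA of about 5 animals, all from 1 strain on 1 diet, had been pooled. The panel held BXD lines, inbred mosaics that descend from C57BL/6J crossed with DBA/2J, and both parents. Both diets were measured in 39 strains, 37 of them BXD lines, while BXD50 had a high-fat array alone and BXD60 and BXD92a a chow array alone. Levels are scores that the depositors' processing had set to a mean of 8 and an SD of 2 on every array. The base of the underlying logarithm is not stated, so differences are in score units, no fold change is given, and levels of different genes were not set against each other.

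Clotting runs as a cascade in which one serine protease activates the next, until thrombin cuts fibrinogen into fibrin. Hepatocytes make most of these proteins, endothelial and stromal cells make others, and several proteases work only after a vitamin K-dependent carboxylation. Antithrombin, the protein C system and other inhibitors limit the cascade, and plasmin dissolves the clot. The transcripts measured here say nothing of plasma protein or of clotting itself.

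Albumin and 9 other hepatocyte markers together had a mean score between 14.25 and 14.54 on high-fat arrays and between 14.14 and 14.60 on chow arrays, high throughout, as liver tissue has. Some arrays stood apart. Pancreatic acinar markers averaged 9.09 on the BXD63 high-fat array and 8.52 on the DBA/2J chow array, against 7.36 on the next highest. The BXD61 chow array had the highest Kupffer cell (10.5), stellate cell (10.35) and cholangiocyte (8.73) marker means and the lowest hepatocyte mean. Cyp2b9 and Cd36, which were higher on high fat in 36 of 39 strains each, were lower on high fat in BXD44, BXD61 and BXD63. Cidea, higher in 37 strains, was lower in BXD44 (-1.69) and slightly so in BXD61 (-0.045), but higher in BXD63 (0.224). Diet and strain counts are given below with and without these 3 strains. The median of the negative-control probe sets was 6.69, and F13a1 was the 1 member with a mean below it.

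The promoters of the fibrinogen genes and of F7 and F10 are shown because these neighbouring genes were correlated across the arrays of each diet, as described further on. Fgg, Fga and Fgb follow each other on chromosome 3, and F7, F10 and Proz on chromosome 8. Each sequence runs from 250 bases before to 50 bases after the annotated start (RefSeq, GRCm38.p6), and capitals mark the motif matches. 28 of 37 members had a promoter in the table used.
Fga, chr3:83025903-83026202, plus strand: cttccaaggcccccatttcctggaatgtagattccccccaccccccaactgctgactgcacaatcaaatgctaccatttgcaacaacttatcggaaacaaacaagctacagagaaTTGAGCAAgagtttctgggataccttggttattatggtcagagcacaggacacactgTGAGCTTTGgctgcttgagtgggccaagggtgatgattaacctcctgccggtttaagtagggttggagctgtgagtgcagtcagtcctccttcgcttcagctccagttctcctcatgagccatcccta
Fgb, chr3:83049814-83050113, minus strand: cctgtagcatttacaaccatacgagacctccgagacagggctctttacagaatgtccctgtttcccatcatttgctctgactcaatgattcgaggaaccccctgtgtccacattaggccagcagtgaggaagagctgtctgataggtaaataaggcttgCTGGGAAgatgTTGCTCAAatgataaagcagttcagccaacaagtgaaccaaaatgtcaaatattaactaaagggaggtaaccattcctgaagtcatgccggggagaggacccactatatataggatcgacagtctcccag
Fgg, chr3:83007474-83007773, plus strand: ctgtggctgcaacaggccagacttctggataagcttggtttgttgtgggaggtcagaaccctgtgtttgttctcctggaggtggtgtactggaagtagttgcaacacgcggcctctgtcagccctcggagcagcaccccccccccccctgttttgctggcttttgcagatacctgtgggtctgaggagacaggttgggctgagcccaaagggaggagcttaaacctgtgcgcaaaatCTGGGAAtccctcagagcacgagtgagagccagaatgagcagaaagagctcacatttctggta
F7, chr8:13025784-13026083, plus strand: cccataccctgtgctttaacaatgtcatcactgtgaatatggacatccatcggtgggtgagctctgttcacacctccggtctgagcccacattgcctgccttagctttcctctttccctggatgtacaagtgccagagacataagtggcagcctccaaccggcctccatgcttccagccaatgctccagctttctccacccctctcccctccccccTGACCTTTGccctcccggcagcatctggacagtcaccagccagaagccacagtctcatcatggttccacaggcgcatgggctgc
F10, chr8:13037058-13037357, plus strand: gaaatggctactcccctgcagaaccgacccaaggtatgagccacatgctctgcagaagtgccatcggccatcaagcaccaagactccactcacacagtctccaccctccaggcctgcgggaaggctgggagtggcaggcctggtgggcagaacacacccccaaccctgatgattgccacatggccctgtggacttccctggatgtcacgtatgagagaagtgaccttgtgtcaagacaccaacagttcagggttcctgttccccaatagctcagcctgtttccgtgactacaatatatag
Both strands were searched for 4 short motifs linked to liver-specific or acute phase transcription. An HNF4 core (CAAAGNNCA) matched at position -78 of Fga and -34 of F7, and stood in 6.37% of the 27025 promoters of this length. A C/EBP motif (TTGCNNAA) matched at -135 of Fga and -80 of Fgb, and stood in 10.75% of all promoters. An IL-6 response motif (CTGGGAA) matched at -91 of Fgb and -13 of Fgg, and stood in 11.12%. An HNF1 motif longer than the half-site, with the half-site followed by a spacer and further bases, stood in 0.44%. This longer motif matched in none of the 5 promoters shown, and no motif matched in F10. The HNF1 half-site alone was not searched for, so its absence from these promoters is not shown. No matches overlapped in these promoters. Among the 28 member promoters the C/EBP letters stood in 12, the HNF4 letters in 6, the IL-6 letters in 5 and the HNF1 letters in 1, that of F13b.

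On the high-fat diet individual members differed in both directions. Plau, the urokinase that activates plasminogen, rose in every strain, while Plat, the tissue-type plasminogen activator, fell in 35 of 39 strains. Vwf and 4 of 5 members of the protein C group rose, by up to 0.20 units. Of 37 members, 14 were higher and 5 lower on high fat, and 18 did not pass (limma with strain as a block, adjusted p under 0.05 over all genes). Over all genes 53.7% passed, 27.7% higher and 26.1% lower, so the 19 members called were near the share of all genes. The median difference was 0.05 units over the members and 0.00 over all genes. The median absolute difference was 0.07 over the members and 0.08 over all genes. Without the strain block 12 members passed, 9 higher and 3 lower, and 47.7% of all genes. Without BXD44, BXD61 and BXD63, 14 were higher and 8 lower, and 55.7% of all genes passed. Leaving out BXD61 alone also gave 8 lower. F11, Kng1 and Serpinf2 lost their calls when 1 of several strains was left out, and F13b (9 strains), Cpb2 (7), Proc (6), A2m (6) and Vkorc1 (BXD61) gained one. The labels name no array batch, so diet and any technical difference between the arrays of the diets cannot be told apart.

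**Figure D1:**
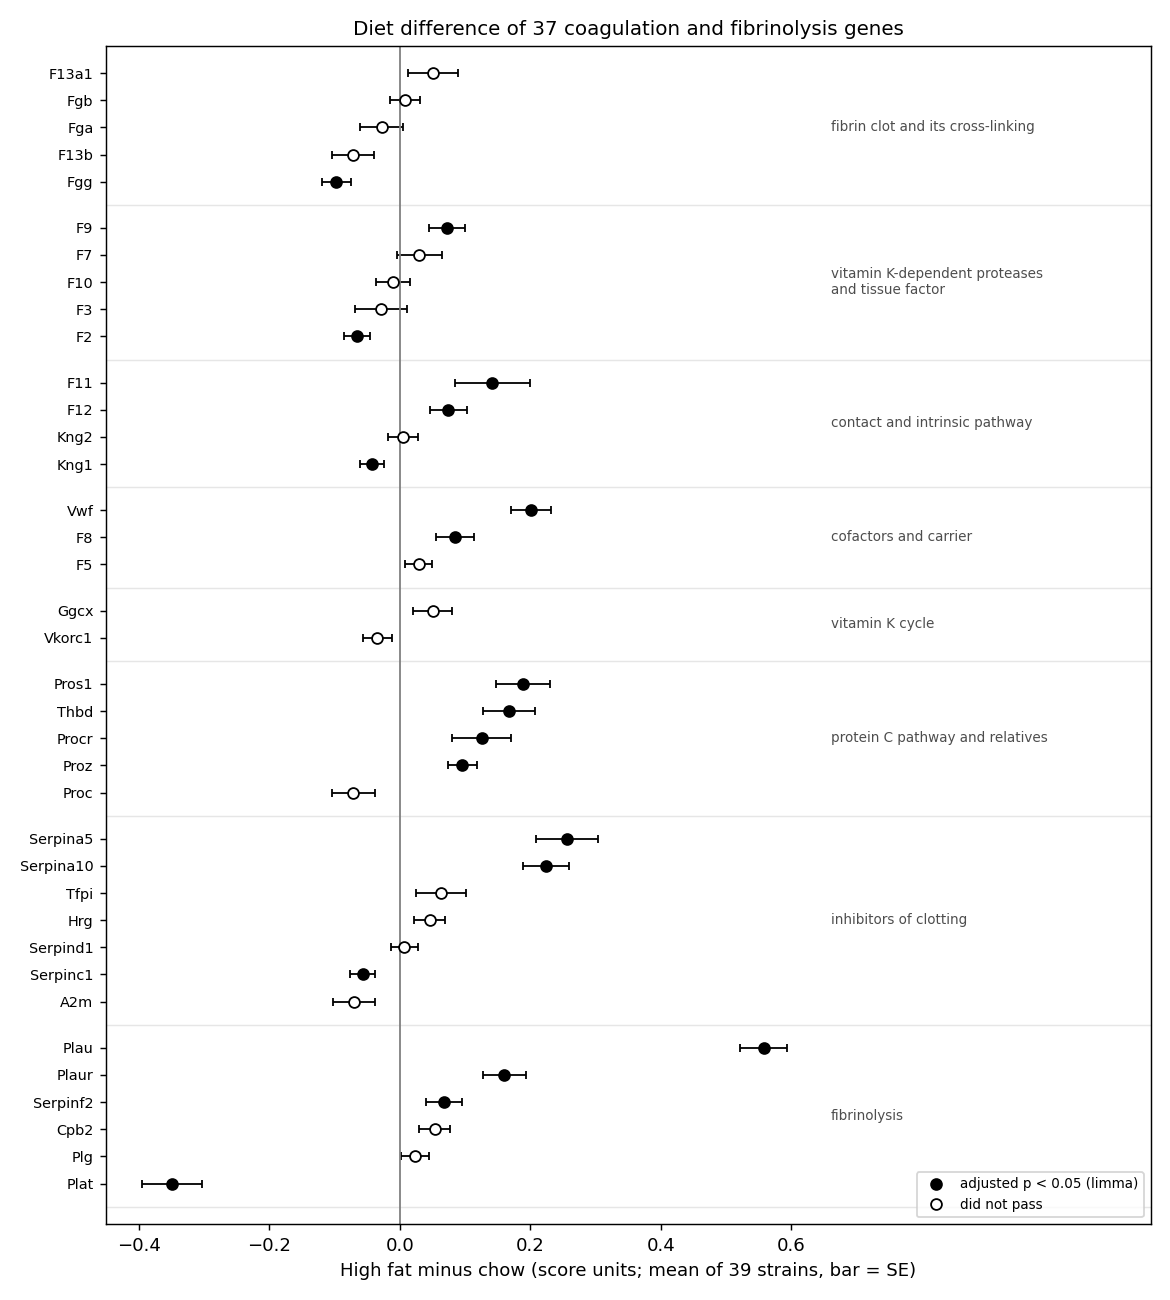
High fat minus chow for the 37 members in score units, grouped by role, as the mean over 39 strains with its SE; filled points passed the adjusted threshold of 0.05. Plau (0.56) and Plat (-0.35) lie farthest from 0, and all filled points of the protein C group lie right of it.

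In fibrinolysis 3 of 6 members rose, 1 fell and 2 did not pass. Plau scores ranged from 6.66 to 7.43 with a median of 7.08 on high fat, and from 5.89 to 6.95 with a median of 6.50 on chow. All 40 high-fat arrays lay above the chow median and 25 of them above the highest chow array. The difference was 0.56 ± 0.04 units (SE, 39 strains; limma, adjusted p = 7.26e-17), positive in 39 of 39 strains, from 0.10 in BXD43 to 1.02 in BXD95. BXD44, BXD61 and BXD63 did not stand apart for Plau, with differences of 0.46, 0.41 and 0.54. The level of Plau was close to the negative-control median, and 7 of 5222 control probe sets (0.134%) differed as much between diets, the largest by 0.64. In none of the controls was the direction the same in every strain, against 46 genes higher and 70 genes lower in every strain.

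Plat had scores from 6.37 to 7.18 with a median of 6.76 on high fat, and from 6.63 to 8.09 with a median of 7.08 on chow. The groups overlapped, with 38 of 40 high-fat arrays below the chow median and 9 below the lowest chow array. The highest chow value, 8.09, belonged to the BXD61 array with the raised non-hepatocyte markers. Plat fell by 0.35 ± 0.05 units (adjusted p = 2.70e-08), with the most negative difference in BXD61 (-1.17). Leaving out any 1 strain kept the difference between -0.36 and -0.33. 136 control probe sets (2.60%) differed as much.

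Plaur, the cell-surface receptor for urokinase, had scores of 6.86 to 7.56 (median 7.31) on high fat and of 6.73 to 7.41 (median 7.17) on chow. It rose by 0.16 ± 0.03 units (adjusted p = 8.20e-05), in 29 of 39 strains, and 26.4% of control probe sets differed as much. Serpinf2, which encodes the plasmin inhibitor alpha-2-antiplasmin, ranged from 13.67 to 14.19 on high fat and from 13.50 to 14.16 on chow, a difference of 0.07 units (adjusted p = 0.0359). Plg, the plasmin precursor, had scores of 14.15 to 14.59 (median 14.44) on high fat and of 14.02 to 14.58 (median 14.41) on chow, with adjusted p = 0.362. Cpb2, the carboxypeptidase that protects fibrin from plasmin, had medians of 13.60 on high fat and 13.51 on chow (adjusted p = 0.0593). The activators and the receptor thus carried the larger differences of the group, at scores within the range of the negative controls.

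**Figure D2:**
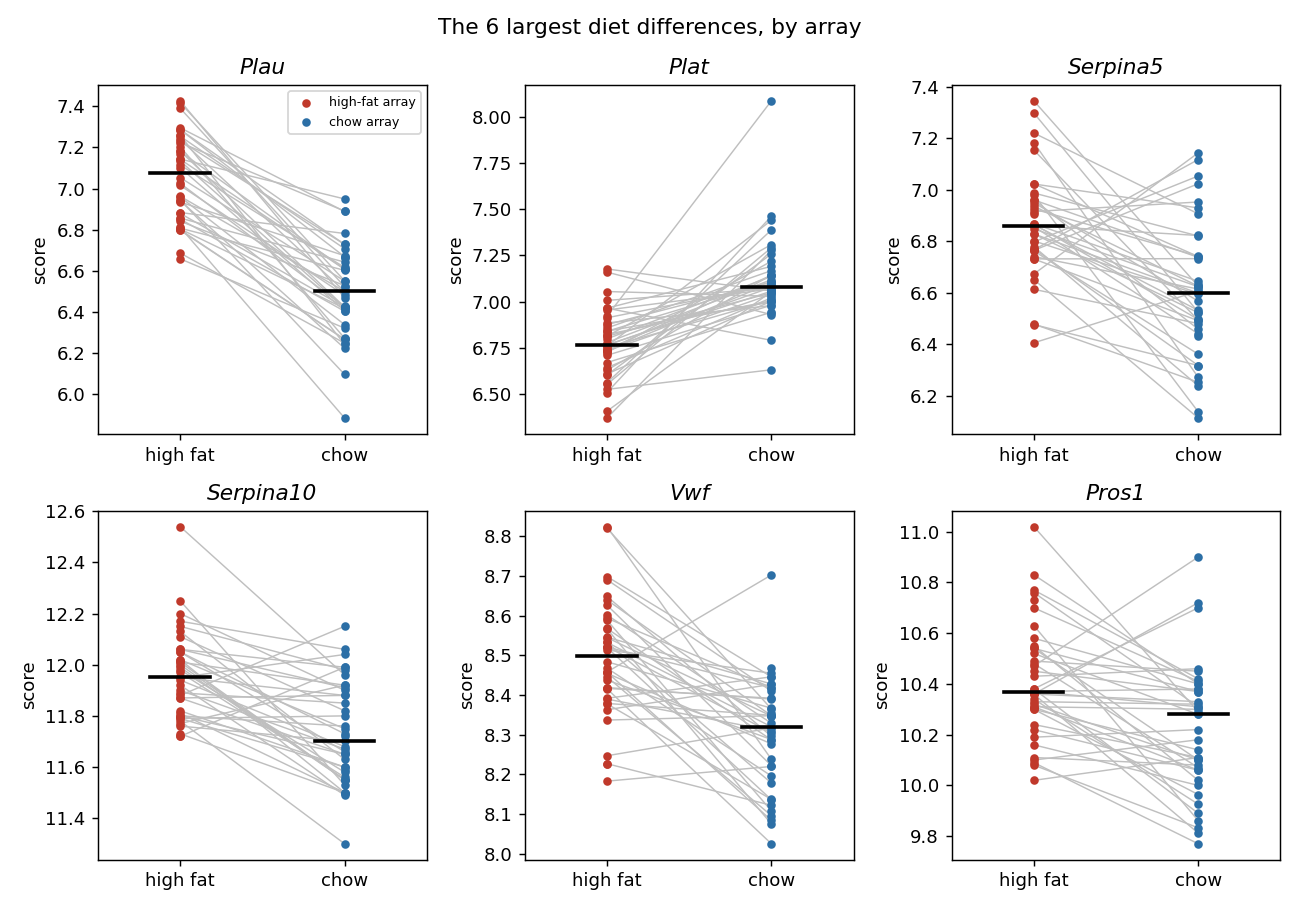
Scores of the 6 members with the largest diet differences, high-fat arrays (40) left of chow arrays (41); grey lines join the arrays of 1 strain and black bars are medians. Every Plau line is higher on high fat, and the Plat panel shows the lone chow array at 8.09.

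In the protein C pathway and its relatives 4 of 5 members rose. Pros1, protein S, the cofactor of activated protein C, had scores of 10.02 to 11.02 (median 10.37) on high fat and of 9.77 to 10.90 (median 10.28) on chow. It rose by 0.19 ± 0.04 units (adjusted p = 1.75e-04) in 31 of 39 strains. Thbd, the endothelial thrombin receptor thrombomodulin, ranged from 7.14 to 8.05 (median 7.60) on high fat and from 6.99 to 7.92 (median 7.45) on chow. Its rise was 0.17 ± 0.04 units (adjusted p = 4.74e-04), in 29 strains. Procr, the endothelial receptor for protein C, ranged from 6.97 to 7.86 (median 7.49) on high fat and from 6.86 to 7.77 (median 7.35) on chow. Procr rose by 0.13 ± 0.05 units (adjusted p = 0.0177), in 28 strains. Of the control probe sets, 24.2% differed as much as Thbd and 37.4% as much as Procr. Proz, protein Z, a cofactor for the inhibition of activated factor X, ranged from 11.63 to 12.09 (median 11.85) on high fat and from 11.57 to 11.97 (median 11.74) on chow. Proz rose by 0.10 ± 0.02 units (adjusted p = 4.14e-04), in 32 strains. The diets overlapped for all 4 of these genes. Proc, protein C itself, had medians of 12.82 on high fat and 12.89 on chow (difference -0.07, adjusted p = 0.0629), lower in 29 strains.

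Of the 7 inhibitors of clotting, 2 rose, 1 fell and 4 did not pass. Serpina5, the protein C inhibitor, had scores of 6.41 to 7.35 (median 6.86) on high fat and of 6.11 to 7.14 (median 6.60) on chow, near the control median. It rose by 0.26 ± 0.05 units (adjusted p = 1.64e-05) in 32 strains, and 443 control probe sets (8.48%) differed as much. Serpina10, the protein Z-dependent protease inhibitor, had scores of 11.72 to 12.54 (median 11.95) on high fat and of 11.30 to 12.15 (median 11.70) on chow. Serpina10 rose by 0.22 ± 0.04 units (adjusted p = 1.05e-06) in 33 strains, and all 40 high-fat arrays lay above the chow median. Proz and Serpina10, partners in the inhibition of factor X, were thus both higher on high fat. Serpinc1, antithrombin, had scores of 13.86 to 14.29 (median 14.05) on high fat and of 13.93 to 14.37 (median 14.13) on chow. Its difference was small, -0.06 ± 0.02 units (adjusted p = 0.0118), and it was lower in 29 strains.

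The other inhibitors did not pass. Tfpi, the inhibitor of the tissue factor pathway, ranged from 7.74 to 9.51 (median 8.28) on high fat and from 7.93 to 9.35 (median 8.17) on chow (adjusted p = 0.169). Serpind1, heparin cofactor II, ranged from 13.60 to 14.04 (median 13.80) on high fat and from 13.38 to 14.02 (median 13.82) on chow (adjusted p = 0.807). Hrg, histidine-rich glycoprotein, had medians of 13.68 on high fat and 13.62 on chow. A2m, a broad protease inhibitor, had medians of 7.74 and 7.81 on high fat and chow.

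Cofactors and carrier transcripts moved up in 2 of 3 cases. Vwf, the platelet-tethering carrier of factor VIII made by endothelium and platelets, had scores of 8.18 to 8.83 (median 8.50) on high fat and of 8.03 to 8.70 (median 8.32) on chow. Vwf rose by 0.20 ± 0.03 units (adjusted p = 3.07e-07) in 33 strains, and 16.9% of control probe sets differed as much. F8, the factor VIII that Vwf carries, had medians of 10.33 on high fat and 10.27 on chow, a rise of 0.08 units (adjusted p = 0.0136). F5, the cofactor of activated factor X, ranged from 12.67 to 13.19 (median 12.94) on high fat and from 12.58 to 13.18 (median 12.89) on chow, and did not pass (adjusted p = 0.246).

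Markers of other cell types were measured beside these genes. Over all genes 27.7% were higher on high fat and 26.1% lower. Megakaryocyte and platelet markers were higher on high fat in 6 of 9 cases and lower in 1. Their mean ranged from 7.75 to 8.18 on high fat and from 7.60 to 7.98 on chow, 0.13 units higher. These means lie below the 90th percentile of the negative controls (8.755), which limits what they can show. Kupffer cell and macrophage markers were higher in 9 of 11 cases and lower in 0. Their mean ranged from 9.39 to 10.4 on high fat and from 9.18 to 10.5 on chow, 0.20 units higher. Stellate cell markers were higher in 5 of 10 cases and lower in 1, with a mean of 9.52 to 9.94 on high fat and 9.41 to 10.35 on chow, 0.05 units higher. Sinusoidal endothelial markers were higher in 2 of 12 cases and lower in 1, with a mean of 9.83 to 10.4 on high fat and 9.82 to 10.37 on chow. The part of these cells in the differences of Vwf, Thbd, Procr, Plau and Plaur was not tested. In whole liver, more cells of a type and more RNA per cell cannot be told apart.

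Among the contact and intrinsic pathway genes F11 and F12 rose, Kng1 fell and Kng2 did not pass. F11, factor XI, ranged from 10.07 to 11.65 (median 10.88) on high fat and from 10.04 to 11.55 (median 10.76) on chow. It rose by 0.14 ± 0.06 units (adjusted p = 0.0339) in 29 strains, and adjusted p was above the threshold when any of 6 strains, BXD44, BXD48, BXD49, BXD62, BXD73 or BXD89, was left out (up to 0.0632). F12, factor XII, ranged from 12.42 to 13.10 (median 12.81) on high fat and from 12.23 to 13.09 (median 12.71) on chow, 0.07 units higher (adjusted p = 0.0266). Kng1, a kininogen gene, had a median of 14.58 on each diet and a mean difference of -0.04 (adjusted p = 0.0450), which was lost when 1 of 22 strains was left out. Kng2, its neighbour and near copy, ranged from 13.19 to 13.61 (median 13.37) on high fat and from 13.09 to 13.69 (median 13.40) on chow, and probes of these copies may cross-hybridise.

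Among the vitamin K-dependent proteases and tissue factor 1 rose, 1 fell and 3 did not pass. F9, factor IX, had medians of 12.45 on high fat and 12.36 on chow, 0.07 units higher (adjusted p = 0.0240). F2, prothrombin, had medians of 13.99 on high fat and 14.07 on chow, and it fell by 0.07 units (adjusted p = 0.00616) with lower values in 29 strains. F7, the protease that tissue factor binds, had medians of 10.59 on high fat and 10.58 on chow, and F10 had medians of 11.78 and 11.82 on high fat and chow. F3, tissue factor, ranged from 7.68 to 8.73 (median 8.08) on high fat and from 7.54 to 8.60 (median 8.15) on chow. None of F7, F10 and F3 passed. The vitamin K cycle enzymes did not pass either. Vkorc1, the epoxide reductase blocked by warfarin, ranged from 12.17 to 12.66 (median 12.39) on high fat and from 11.75 to 12.66 (median 12.44) on chow. Ggcx, the gamma-glutamyl carboxylase, had medians of 11.25 on high fat and 11.18 on chow.

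Of the fibrin group 1 of 5 members changed. Fgg, the gamma chain of fibrinogen, ranged from 14.51 to 14.89 (median 14.68) on high fat and from 14.58 to 15.05 (median 14.77) on chow. It fell by 0.10 ± 0.02 units (adjusted p = 2.88e-04), in 30 of 39 strains, with 32 of 40 high-fat arrays below the chow median. Fgb, the beta chain, had medians of 14.54 on high fat and 14.52 on chow (adjusted p = 0.785). Fga, the alpha chain, ranged from 12.36 to 13.13 (median 12.78) on high fat and from 12.33 to 13.18 (median 12.79) on chow (adjusted p = 0.493). A further Fga probe set, lower in signal, had medians of 10.73 on high fat and 10.68 on chow and did not pass either (adjusted p = 0.137). F13a1 and F13b, the subunits of the fibrin cross-linking factor XIII, had medians of 6.60 and 11.42 on high fat, against 6.54 and 11.49 on chow, and did not pass.

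Other genes of clotting, acute phase proteins and liver transcription factors were listed for comparison. Their counts stand beside 53.7% of all genes called by diet, 27.7% higher on high fat and 26.1% lower. Of 37 further clotting and fibrinolysis genes 17 were higher on high fat, 6 lower and 14 did not pass. Fgl1, a fibrinogen-like protein of hepatocytes, rose by 0.71 ± 0.10 units, Anxa2, a cell-surface plasminogen receptor, by 0.72 ± 0.11, and Anxa5, which binds procoagulant phospholipid, by 0.45 ± 0.08. F2rl2, a protease-activated receptor, fell by 0.26 ± 0.04. Of 22 acute phase and IL-6 genes 15 were higher and 1, Hamp, lower, with rises of 1.75 ± 0.25 for Lcn2 and 1.06 ± 0.13 for Orm3, 0.35 ± 0.05 for Saa4 and 0.56 ± 0.08 for Steap4. Members of the Orm and Saa families can share probes. The fibrinogen chains, also acute phase proteins, were thus not among the genes higher on high fat. Of 20 liver transcription factors 6 were higher, 4 lower and 10 did not pass. Dbp rose by 0.64 ± 0.10 units, Nr1i2 fell by 0.20 ± 0.03, Cebpd fell by 0.17 ± 0.04 and Hnf4a fell by 0.12 ± 0.03.

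Levels differed between strains for many members. The strain test passed for 19 of 37 members (limma moderated F-test over 39 strains, adjusted p under 0.05), while 22.3% of all genes passed. When the dimmest tercile of genes was left out, 18 members passed and 34.8% of the genes. The strain share, the part of the variance around the diet means that the diets of a strain have in common, had a median of 37.2% over the members and 19.6% over all genes. Without BXD80, BXD96, BXD97 and BXD103, lines closely related to others of the panel, 12 members and 15.9% of genes passed. F7, F8, F9, Pros1, Plg, Serpind1 and Serpinf2 then lost their calls. Without BXD44, BXD61 and BXD63, 16 members and 23.1% of genes passed. The difference between members and other genes was not tested.

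Tfpi had the highest strain share, 74.1% (adjusted p = 7.58e-08). The strain means of its arrays on high fat and chow ran from 7.90 in BXD103 to 9.43 in BXD49, with a median of 8.21. BXD49 scored 9.51 on high fat and 9.35 on chow, and BXD95 scored 8.87 on high fat and 9.32 on chow. These 2 strains also had the highest means of F3, tissue factor, whose product Tfpi restrains, while over all 39 strain means Tfpi and F3 correlated at r = 0.23. F3 strain means ran from 7.75 in BXD101 to 8.54 in BXD49, with a share of 48.8% (adjusted p = 0.00250). Counted from the highest strain, the Kupffer marker mean ranked 2 of 39 in BXD49 and 35 of 39 in BXD95. The sinusoidal endothelial mean ranked 4 in BXD49 and 11 in BXD95, and the hepatocyte mean 39 and 6. The part of these cells in the Tfpi levels was not tested. The 5 genes most like Tfpi over the strain means were led by C5ar1 (r = 0.71, 39 strains), with none of those placed in the gene table lying on its chromosome 2.

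F11 was the member with the next widest range, 1.38 units, from 10.17 in BXD81 to 11.55 in DBA/2J, and a share of 50.1% (adjusted p = 0.00101). A gap of 0.28 units parted 5 strains, at up to 10.29, from the other 34. The 5 were BXD81, BXD65, BXD48, BXD44 and BXD96, and BXD96 and BXD48 are close relatives. C57BL/6J ranked 20 of 39. Vkorc1 (54.7%, adjusted p = 0.00609) ran from 11.97 to 12.61, with BXD61 alone at the bottom, 0.26 units below the next strain. Its BXD61 arrays scored 12.20 on high fat, where BXD71 was lower (12.17), and 11.75 on chow, the array with the lowest hepatocyte and raised other markers.

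**Figure D3:**
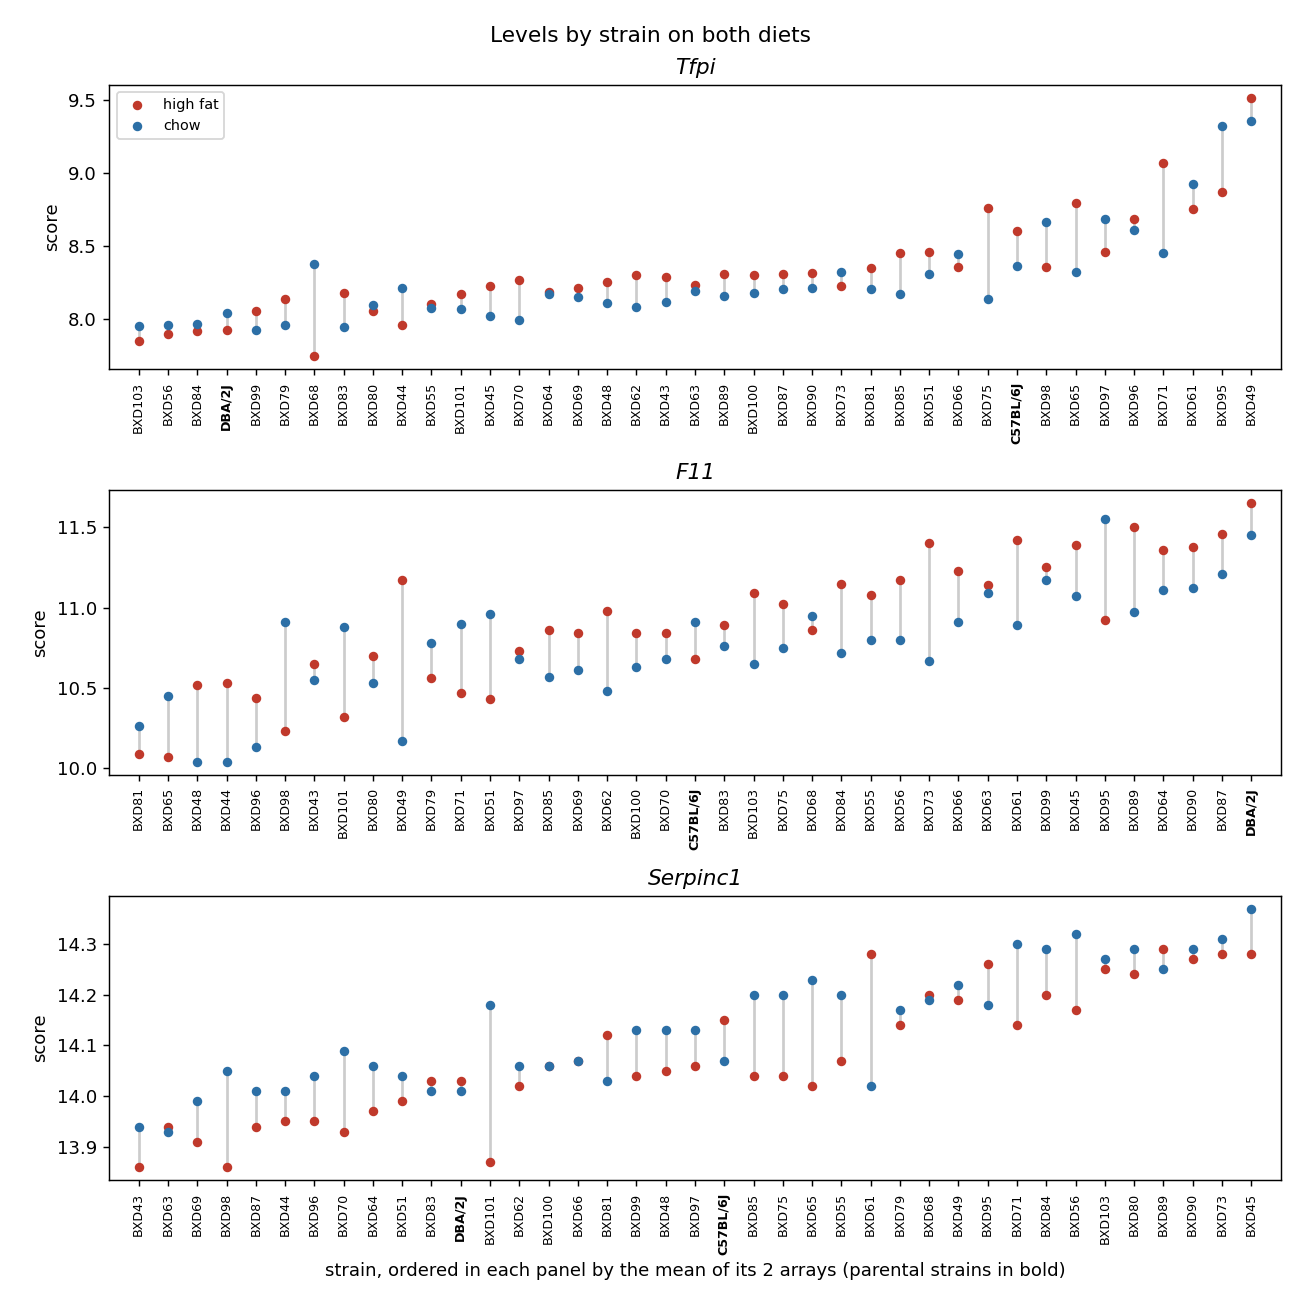
Scores of Tfpi, F11 and Serpinc1 in the 39 strains with both diets, red for high fat and blue for chow, ordered in each panel by the strain mean. BXD49 and BXD95 lie highest for Tfpi, 5 strains lie lowest for F11, and for Serpinc1 both diets climb together along the strains.

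Serpinc1 and F5 lie 36 protein-coding genes apart on chromosome 1 and varied together. Serpinc1 had a share of 68.8% (adjusted p = 4.69e-04), with strain means of 13.90 in BXD43 to 14.32 in BXD45. F5 had a share of 63.0% (adjusted p = 0.00140), with strain means of 12.69 in BXD96 to 13.17 in BXD51. Their strain means correlated at r = 0.64 over 39 strains, given as a description. The genes most like Serpinc1 included Fmo1 (r = -0.76), 4930523C07Rik (r = 0.74), Cenpl (r = 0.70) and Fmo2 (r = -0.68), all within 22 genes of it. The genes most like F5 included Tada1l (r = 0.70), Ildr2 (r = 0.66), Creg1 (r = 0.65) and Serpinc1, beside Nme1 (r = -0.67) on chromosome 11. F12 had a share of 56.3% (adjusted p = 9.43e-04), with strain means of 12.36 in BXD69 to 13.01 in BXD90. Unc5a (r = 0.64) and Ntrk2 (r = -0.63), both on its chromosome 13, were most like F12. Next came V1re5 (r = 0.59), Tspan1 (r = 0.57) on chromosome 4 and 4930515G13Rik (r = 0.53). V1re5 and 4930515G13Rik were not placed in the gene table. The strains' genotypes were not analysed here.

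The remaining members of the 12 with the highest shares among those that passed were Plg, Kng2, Serpind1, Fga and Plau. Kng1 had a share of 46.4% but did not pass (adjusted p = 0.129). Plg had a share of 55.7% (adjusted p = 0.00792) and strain means of 14.17 in BXD96 to 14.55 in BXD70. Kng2 had 52.8% (adjusted p = 0.00890), from 13.22 in BXD100 to 13.62 in BXD70, and Serpind1 had 50.8% (adjusted p = 0.0276), from 13.55 in BXD43 to 13.95 in BXD90. Fga had 44.1% (adjusted p = 0.0103), from 12.48 in BXD48 to 13.13 in BXD79. The further Fga probe set had 68.1% and followed the first over the strain means with r = 0.94. Plau had 43.0% (adjusted p = 0.0101), from 6.35 in BXD48 to 7.09 in BXD61, so it had a strain part beside its diet difference. Plat and Procr had strain shares of 0, and Fgb 7.66%. F7, F8, F9, F13a1, Ggcx, Pros1 and Serpinf2 also passed the strain test, with shares from 35.6% for F7 to 42.6% for Serpinf2. Leaving out 1 strain ended the call of F9 for any of 12 strains and of F7 for any of 5, of F8 without BXD96, and of F13a1 and Serpinf2 without BXD97. Cpb2 passed without BXD44.

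The parental strains were compared over their arrays on both diets. None of the 37 members passed (limma, C57BL/6J minus DBA/2J, adjusted p under 0.05), against 2.39% of all genes (1.35% higher and 1.04% lower in C57BL/6J). At an unadjusted p under 0.05 there were 6 members, Tfpi higher and F3, F11, Proz, Serpina10 and Plg lower in C57BL/6J. F11 scored 10.68 and 10.91 in C57BL/6J on high fat and chow, against 11.65 and 11.45 in DBA/2J, a difference of -0.75 ± 0.25 units (adjusted p = 0.120). Tfpi scored 8.60 and 8.36 in C57BL/6J on high fat and chow, against 7.92 and 8.04 in DBA/2J, a difference of 0.50 ± 0.17 units (adjusted p = 0.130). With array weights both passed (adjusted p = 0.0355 for F11 and 0.0359 for Tfpi), 2 of 37 members against 4.89% of all genes. DBA/2J had the highest strain mean of all 39 for F10, F11, Proz and Serpina10, and C57BL/6J the lowest for Fgb. The DBA/2J chow array is the one with raised acinar markers. Fitted without it and the BXD63 high-fat array, 0 members passed.

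No member passed the test of whether strains spread more widely on one diet (limma on absolute deviations, 0 of 37, against 0.00919% of all genes). At an unadjusted p under 0.05 there were 0 members and 1148 of 21765 genes. The diet difference was not shown to differ between C57BL/6J and DBA/2J (limma, 0 of 37, against 0% of all genes). At an unadjusted p under 0.05 there was 1 of 37 members, Pros1, and 797 of 21765 genes.

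Functional partners were compared across strains within each diet, over 40 high-fat and 41 chow arrays. In 14 pairs and both diets, 28 tests, Pearson's r passed in 15 and Spearman's rho in 13 (permutation tests with 100000 resamples, two-sided, Benjamini-Hochberg adjusted over the 28). The smallest p these resamples give is 1e-05. 7 pairs passed on both diets by Pearson's r. Without BXD44, BXD61 and BXD63, r on high fat and chow was 0.80 and 0.90 for Fgb with Fgg, 0.82 and 0.83 for Plg with Serpinf2, and 0.66 and 0.72 for F7 with F10.

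Fgb and Fgg had the highest r, 0.81 on high fat and 0.89 on chow (rho 0.79 and 0.80; permutation p = 1e-05, adjusted p = 4e-05 on both). Leaving out the 2 strains farthest from the Fgb median gave r of 0.75 on high fat and 0.86 on chow. Each was the other's most correlated gene among all genes on both diets. Neither passed the strain test (limma F-test, share 7.66% and adjusted p = 0.639 for Fgb, 26.9% and 0.258 for Fgg). Their r across arrays was thus not shown to be a strain difference that both diets share. Fga and Fgg had r of 0.74 on high fat and 0.53 on chow (rho 0.74 and 0.51; permutation p = 1e-05 and 2.8e-04, adjusted p = 4e-05 and 8.71e-04), and 0.72 and 0.43 without the 2 farthest strains. Fga and Fgb had r of 0.51 on high fat and 0.41 on chow (rho 0.50 and 0.38; permutation p = 6.2e-04 and 0.0075, adjusted p = 0.00174 and 0.0191). Without BXD48 and BXD43 the chow r was 0.32 and did not pass (adjusted p = 0.0980), so its call depended on those strains. By rho over all chow arrays the pair passed (adjusted p = 0.0349). The high-fat r without 2 strains was 0.47. The 3 chains of fibrinogen thus varied together across arrays, Fga less closely than the others. Over the strain means the further Fga probe set had r of 0.26 with Fgb and 0.48 with Fgg. The probe set kept for Fga had 0.38 and 0.56.

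Plg and Serpinf2, plasminogen and the inhibitor of plasmin, had r of 0.73 on high fat and 0.80 on chow (rho 0.68 and 0.77; permutation p = 1e-05, adjusted p = 4e-05 on both), and 0.69 and 0.78 without the 2 farthest strains. On chow each was the other's most correlated gene. F7 and F10, adjacent genes, had r of 0.66 on high fat and 0.76 on chow (rho 0.65 and 0.76; permutation p = 2e-05 and 1e-05, adjusted p = 7e-05 and 4e-05), and 0.60 and 0.73 without the 2 farthest. F10 did not pass the strain test (limma F-test, share 21.6%, adjusted p = 0.2495). Kng1 and Kng2 had r of 0.41 on high fat and 0.67 on chow (rho 0.38 and 0.69; permutation p = 0.00918 and 1e-05, adjusted p = 0.0214 and 4e-05), and 0.39 and 0.64 without the 2 farthest. On high fat the Kng pair did not pass without the related lines (adjusted p = 0.0540).

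F2 and Serpinc1, thrombin's precursor and its inhibitor, had r of 0.36 on high fat and 0.35 on chow (rho 0.40 and 0.33; permutation p = 0.0219 and 0.0234, adjusted p = 0.0436 on both). Without the 2 farthest strains r was 0.51 on high fat and 0.36 on chow, where it no longer passed (adjusted p = 0.0545). On high fat it did not pass without DBA/2J and BXD63 (adjusted p = 0.0555) or without the related lines (0.0902), nor on chow without the related lines (0.0693) or by rho (0.0754). Proz and Serpina10 had r of 0.36 on high fat and 0.21 on chow (rho 0.24 and 0.26; permutation p = 0.0230 and 0.188, adjusted p = 0.0436 and 0.25). The high-fat value rested on DBA/2J and BXD44, and was 0.12 without them, while the chow value was 0.24 without its 2 farthest strains.

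**Figure D4:**
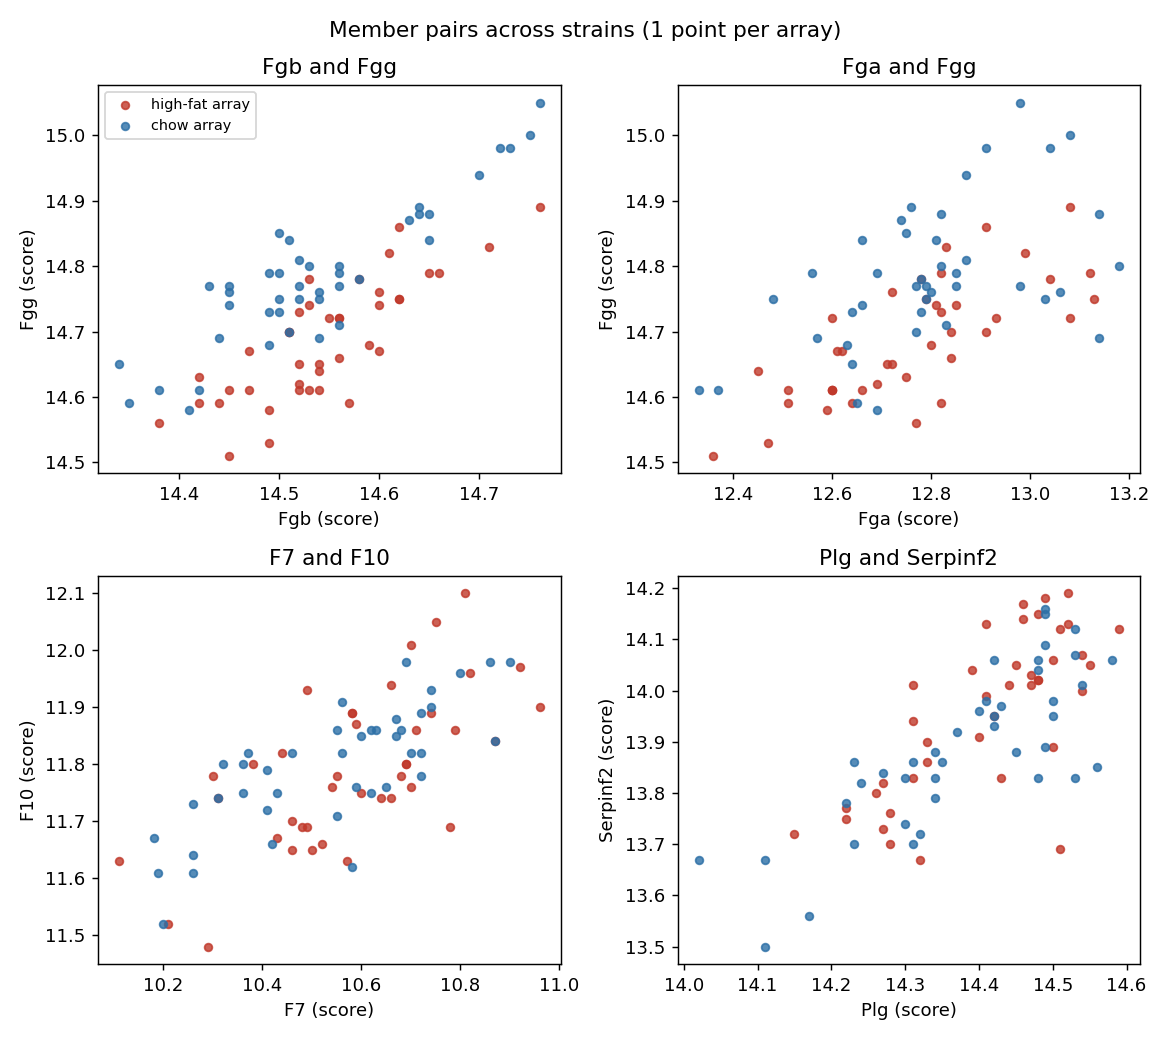
Scores of 4 member pairs, 1 point per array, red for high fat and blue for chow. Fgb and Fgg line up most closely, with the high-fat points at lower Fgg for a given Fgb, and Plg with Serpinf2 and F7 with F10 also line up on both diets.

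The other 6 pairs did not pass on either diet. F13a1 with F13b had r of -0.09 on high fat and -0.06 on chow (rho -0.14 and 0.03; permutation p = 0.567 and 0.729, adjusted p = 0.610 and 0.756). F8 with Vwf had 0.13 and 0.09 on high fat and chow (rho 0.07 and 0.17; permutation p = 0.439 and 0.565, adjusted p = 0.512 and 0.610). Thbd with Procr had 0.28 on each diet (rho 0.28 and 0.25; permutation p = 0.0795 and 0.0740, adjusted p = 0.117 and 0.115). The F8 and Vwf pair and the Thbd and Procr pair include endothelial transcripts, and neither showed a shared variation past the threshold. F13a1 had a mean below the negative-control median, which limits what its r can show. Proc with Pros1 had -0.32 on high fat and -0.25 on chow (rho -0.25 and -0.19; permutation p = 0.0451 and 0.121, adjusted p = 0.0789 and 0.169). Plau with Plaur had 0.14 on each diet (rho 0.17 and 0.15; permutation p = 0.376 and 0.363, adjusted p = 0.458 on both). Plat with Vwf had 0.02 on high fat and 0.30 on chow (rho 0.10 and 0.02; permutation p = 0.905 and 0.0613, adjusted p = 0.905 and 0.101), and the chow value was -0.05 without BXD61 and BXD87. Without their 2 farthest strains the r of these pairs on high fat and chow were -0.13 and 0.09 for F13a1 with F13b, 0.12 and 0.16 for F8 with Vwf, and 0.17 and 0.30 for Thbd with Procr. They were -0.30 and -0.04 for Proc with Pros1, 0.10 and 0.23 for Plau with Plaur, and 0.13 on high fat for Plat with Vwf.

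Over the strain means, 42 of the 666 member pairs had r of at least 0.5 and 3 had r of at most -0.5, with a median r of 0.08. These are descriptions over 39 strains that share each array's scaling and the hepatocyte content of the tissue. Serpinf2 reached 0.5 with 10 other members and Plg with 9, among them F2 with Plg (0.76), F10 with Serpinf2 (0.71) and Fgb with Plg (0.71). Kng1 and F10 reached it with 8 each, and Fgb, F7, Proc and Proz with 6 each. F11 was closest to Proz (0.71). Members with no partner at 0.5 included F3, Vwf, Thbd, Procr, Plat, Plau and Plaur, and also F9, F12, F13b, Cpb2, Pros1, A2m, Serpina5, Vkorc1 and Ggcx. The 3 negative pairs were F13a1 with Vkorc1 (-0.58), Kng1 with Pros1 (-0.54) and F8 with Plg (-0.53).

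**Figure D5:**
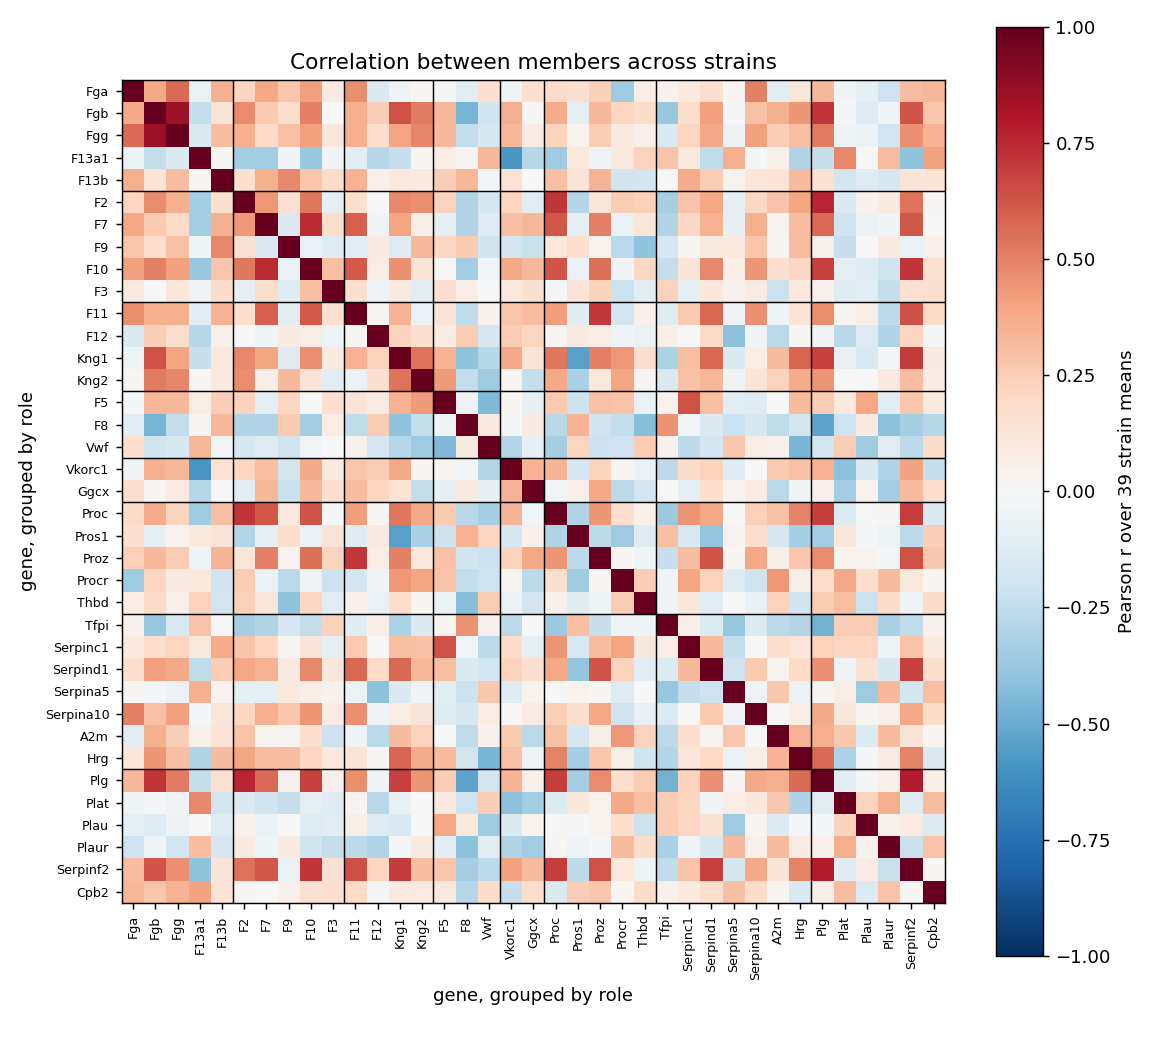
Pearson r between all 37 members over 39 strain means, with genes in the order of their roles and lines between the roles. The dark red cells join Fgb with Fgg, and Plg and Serpinf2 with proteases such as F2 and F10. Plat, Plau and Plaur, like several other members, reach an r of 0.5 with no member.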

How the data were processed

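The deposited values are scores per probe set from Affymetrix whole-transcript arrays, made by the authors with Affymetrix Expression Console, per the submitters' processing notes, without a version. How probe sets were summarised is not given in the sources used here. In every column 35556 probe sets had a mean of 8 and an SD of 2, so arrays had been standardised and a shift shared by most genes cannot be seen. The number of arrays limits precision. Per the labels, RNA of about 5 animals was pooled before each array, so no p-value measures the spread between animals. In the fits on strain and diet, p-values rest on how far the diet difference of the pools varied between strains. The fit without the strain block and the correlations within a diet rest on the spread of pools between strains. Technical spread is part of both. Array medians were between 7.66 and 7.81. The 2 deposited tables differed in 0 cells.

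The probe set with the highest mean per symbol was kept (21765 genes). Fga had a further probe set. Diet, strain and parents were fitted by limma 3.58.1 under R 4.3.3, with lmFit and eBayes, on 78 paired arrays with terms for strain and diet, adjusted by Benjamini-Hochberg over all genes at 0.05. The strain name pairs the diets. Diet-specific spread and the parental diet interaction used the same tool. Correlations used permutation tests in Python 3.11.15 with NumPy 2.4.6. The design assumed log2 values and was run on scores. The diet, strain and parental tests were tried on simulated scores of known effect size. The spread and interaction tests were run on these scores with no such effect planted. The correlation tests were not tried on simulated scores. Members, gene lists and alternatives were chosen with earlier results of these data known, so they give no independent support to patterns seen before. Named members are the 12 largest called diet differences, the 12 highest called strain shares, every pair and, for other lists, up to 4 called genes with the smallest p. Alternatives were no strain block, median centring, leaving out dim genes, another probe set, array weights, and leaving out acinar-marked, related or single strains. Leaving out BXD44, BXD61 and BXD63 was added after seeing the data. Pairs with Klkb1 were not computed.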

Additional observations from a re-analysis of the deposited data

How the results depend on the processing

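No called result changed direction under the alternatives. Among values that had not passed, the diet differences of F10, Kng2 and Serpind1 changed sign when single strains were left out, as did r for F13a1 with F13b and Plat with Vwf on chow without 2 strains. With no replicate block, so without strain as the pairing, 12 members were called by diet on the paired arrays and 12 on all arrays (19 with the block), 9 and 9 of them higher (14 with it) and 3 and 3 lower (5 with it). F8, F9, F11, F12, Kng1, Serpinc1 and Serpinf2 lost their diet calls in both. The number lower on high fat was 9 with array weights (57.6% of all genes called in either direction) and 8 without BXD44, BXD61 and BXD63 (55.7%), and leaving out 1 strain at a time gave 4 to 8, with 8 without BXD61. The members called between strains were 12 without BXD80, BXD96, BXD97 and BXD103. Array weights called 2 members between parents, against 0, and 4.89% of all genes. Leaving out 1 strain at a time gave 16 to 21 members called by diet, 12 to 15 higher and 16 to 20 called between strains. Median centring, leaving out the dimmest tercile of genes and another probe set kept these 4 diet and strain counts within 1.5 times. The causes were not tested. Dim members (Plau, Plat, Serpina5, F13a1) lie near the negative-control median. Plaur, Procr, Thbd, A2m, F3, Tfpi and Vwf lie higher, but below the 90th percentile of the controls (8.755). This limits what the scores of all these members can show.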
